A study of Mus musculus with 2 samples.

Results

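Wnt ligands, the R-spondins that amplify them, and their receptors and coreceptors on the cell surface were described in cultures of primary mouse osteoblasts after 12 days and after 5 days of differentiation. The genes were chosen by symbol: Wnt, Fzd or Rspo followed by a number, or Lrp5, Lrp6, Ror1, Ror2, Ryk, Lgr4, Lgr5, Lgr6, Porcn, Wls, Rnf43, Znrf3, Kremen1 and Kremen2. This gave 46 genes with 92 probe sets, of 18193 genes with 34945 probe sets in all; Kremen2 had no probe set with 1 symbol and was not analysed here. The cells were CD11b-negative cells from calvariae, the roof bones of the skull, of newborn mice, so that cells bearing the myeloid surface protein CD11b had been taken out. They were kept in ascorbic acid (50 µg/ml), which collagen deposition requires, and β-glycerophosphate (10 mM), a phosphate donor for mineral, for 12 days in one culture and for 5 days in the other. No strain, genotype change or further treatment is stated, and how many animals gave cells is not stated. Each day was measured on 1 Affymetrix array, so no value has a replicate error, no test between days could be made, and every difference is one between these 2 arrays.

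In Wnt signalling, a secreted lipid-bearing Wnt protein binds a Frizzled receptor together with Lrp5 or Lrp6, and the resulting complex keeps β-catenin from being degraded so that it can act with TCF/LEF factors in the nucleus. Other Wnt proteins act through Ror and Ryk receptors without β-catenin. R-spondins bind Lgr receptors and hold back Rnf43 and Znrf3, which otherwise remove Frizzled from the surface. In bone, Wnt signalling through Lrp5 and Lrp6 is known to favour osteoblast formation and bone mass.

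Signals are in array units on a linear scale. The 60th percentile of each array, 44.8 at day 12 and 46.6 at day 5, served as a floor, and a gene was counted as measured where its brightest probe set reached the floor on at least 1 array. A signal under the floor was set to the floor when the ratio of day 12 over day 5 was taken, and such a ratio is a bound, written "at least". By this rule 27 of the 46 genes were measured, 25 of them on both arrays, and 19 lay below the floor on both.

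Most of the measured genes lay within 1.5-fold between the days, though a smaller share than of all measured genes. The largest ratios were those of a pair of Frizzled receptors that moved in opposite directions. Fzd5 was 2.85-fold higher at day 12 and Fzd9 was 4.10-fold lower. They were the only members past 2-fold, so 1 of 27 was counted as higher and 1 of 27 as lower, where 2-fold or more was reached by 3.56% of all 10479 measured genes upward and by 1.73% downward (5.29% in either direction). At 2-fold these counts are near that background. Past 3-fold were Fzd9 downward, or 1 of 27 (3.70%), and no member upward, where 0.344% of all measured genes reached it downward and 1.67% upward. Only 6 of the 27 (22.2%) had ratios between the quartiles of all measured genes, -0.27 and 0.17. The quartiles of the 27 themselves were further apart, at -0.34 and 0.36. In bulk RNA, fewer cells of a type cannot be told apart from less RNA per cell. The median log2 ratio of the 27 was 0.01, against -0.05 for all measured genes, and 14 of the 27 had a ratio above 0 and 13 below. A ratio within 1.5-fold was seen in 19 of the 27 (70.4%), against 85.0% of all measured genes. With 1.5-fold as the threshold, Porcn, Lgr5 and Kremen1 joined Fzd5 as higher and Rspo2, Rspo3 and Wnt9a joined Fzd9 as lower. This made 4 of 27 higher and 4 of 27 lower, larger shares than the 7.25% and 7.7% of all measured genes. These shares rest on few genes, and their difference from those of all measured genes was not tested.

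**Figure D1:**
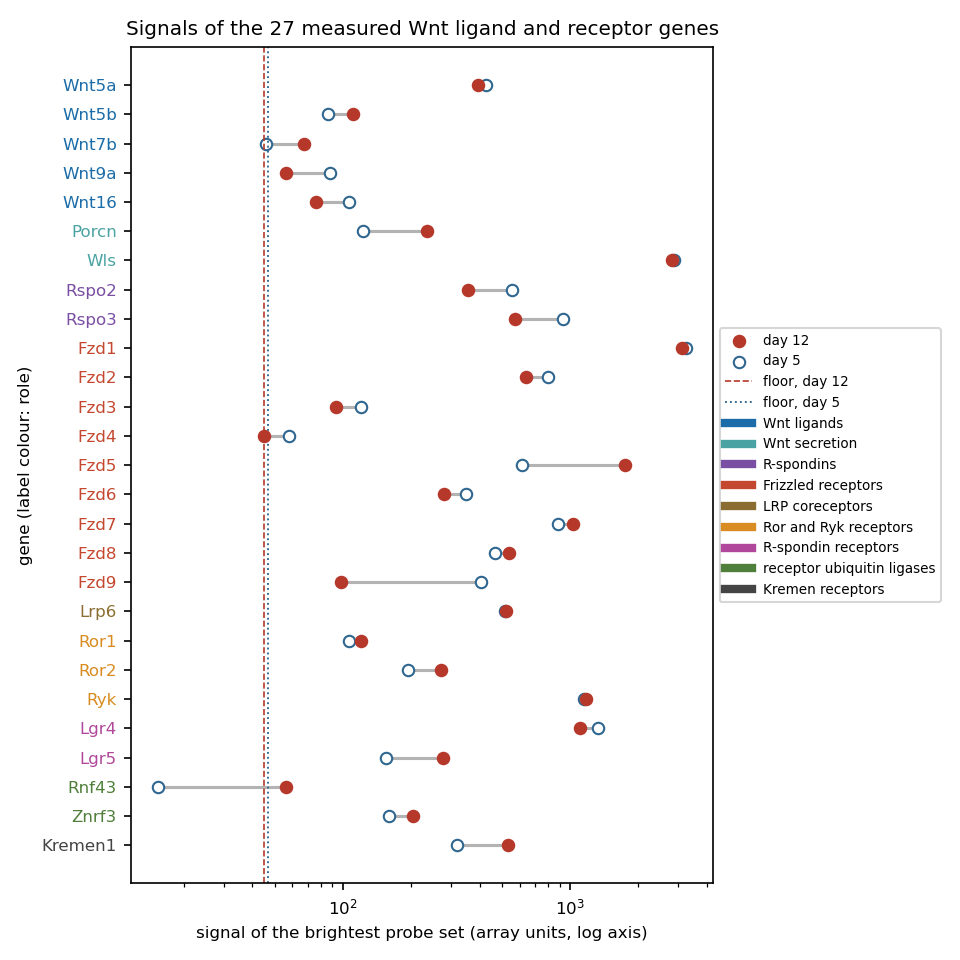
Signal of the brightest probe set of each of the 27 measured genes on a log axis, with the day 12 array as filled and the day 5 array as open points, 1 array each. Dashed and dotted lines are the floors of the day 12 and day 5 arrays, label colours give the role, and the widest gap with both points above the floors is that of Fzd9, at 98.6 on the day 12 and 404 on the day 5 array.

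Frizzled receptors are the seven-pass membrane proteins that bind Wnt proteins, and all but Fzd10 of the 10 were measured. Fzd9, a receptor known from mutant mice to be needed for normal bone formation, had signals of 98.6 at day 12 and 404 at day 5. Its log2 ratio of -2.04 was the seventh lowest of 10479 genes (rank 7), and it rests on 1 probe set. The ratio was -1.20, as a bound, with the floor at the 75th percentile, which lies above the day 12 signal. Fzd5, a receptor for Wnt5a among other ligands, had signals of 1745 at day 12 and 613 at day 5. Its log2 ratio of 1.51 was the 200th highest (rank 200), and its second probe set gave 126 at day 12 and 61.5 at day 5, a log2 ratio of 1.03. Both probe sets of Fzd5 were therefore past 2-fold, in the same direction.

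Frizzled genes fall into subfamilies by sequence, by which the rest are given here. Fzd9 belongs with Fzd4 and Fzd10. Fzd4, which also binds the vascular ligand norrin, had signals of 45.0 at day 12 and 58.2 at day 5, just above the floor on the day 12 array (log2 ratio -0.37). Fzd10 lay below the floor, at 21.6 at day 12 and 10.7 at day 5. Fzd5 pairs with Fzd8, for which the brightest probe set gave 539 at day 12 and 469 at day 5 (log2 ratio 0.20), but the other gave 129 at day 12 and 161 at day 5 (-0.32), so that its direction is not settled. Among Fzd1, Fzd2 and Fzd7, Fzd7 had signals of 1034 at day 12 and 888 at day 5 and Fzd2 of 639 at day 12 and 800.3 at day 5, with log2 ratios of 0.22 and -0.32. The other probe sets of Fzd2 gave -0.30 and -0.52. The signal of Fzd1 was 3107 at day 12 and 3252 at day 5, a log2 ratio of -0.07 that was 0.08 in its other probe set. Fzd3 and Fzd6, receptors of the planar polarity branch, were both somewhat lower, with log2 ratios of -0.36 and -0.32. The signal of Fzd3 was 93.4 at day 12 and 120.05 at day 5, and that of Fzd6 was 279 at day 12 and 348 at day 5. The other measured probe sets of Fzd3 lay closer to no difference, at -0.18 and -0.19. The median log2 ratio of the 9 measured Frizzled genes was -0.32, with 6 ratios below 0 and 3 above. The median of those measured was below 0 under each of 8 alternatives, between -0.32 and -0.07. Not all alternatives covered the same genes, with 10 measured with the floor at the 50th percentile (-0.19) and 7 at the 75th (-0.07).

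The promoters of both genes past 2-fold and of the measured and unmeasured relatives of Fzd9 are shown to set the sequence beside these opposite ratios. They are RefSeq windows on GRCm38.p6 from 250 bases before to 50 bases after the annotated start, written 5′ to 3′ on the gene's strand. The table held windows for 30 of the 46 genes. Both strands were searched for 3 motifs by their letters: TCAAAG (core of TCF/LEF sites), ACCACA (core of RUNX sites) and ACGTG (1 form of the core of hypoxia-inducible factor sites, which overlaps the E-box CACGTG). The other form of that core, GCGTG, was not searched and is not marked. Capitals mark every match. Fzd9 lies at chr5:135250998-135251297 on the minus strand, Fzd5 at chr1:64737701-64738000 on the minus strand, Fzd10 at chr5:128600856-128601155 on the plus strand and Fzd4 at chr7:89404116-89404415 on the plus strand.
Fzd9: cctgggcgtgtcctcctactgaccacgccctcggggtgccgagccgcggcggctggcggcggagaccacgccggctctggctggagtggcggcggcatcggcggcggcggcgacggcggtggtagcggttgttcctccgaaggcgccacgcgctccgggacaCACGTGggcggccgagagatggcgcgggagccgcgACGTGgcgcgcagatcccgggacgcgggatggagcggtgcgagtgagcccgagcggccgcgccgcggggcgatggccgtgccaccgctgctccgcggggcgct
Fzd5: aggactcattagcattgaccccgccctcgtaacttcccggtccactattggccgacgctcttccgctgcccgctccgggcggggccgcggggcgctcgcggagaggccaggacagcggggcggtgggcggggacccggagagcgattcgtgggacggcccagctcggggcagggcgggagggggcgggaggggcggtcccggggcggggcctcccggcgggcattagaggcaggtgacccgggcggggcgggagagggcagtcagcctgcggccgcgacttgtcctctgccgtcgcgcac
Fzd10: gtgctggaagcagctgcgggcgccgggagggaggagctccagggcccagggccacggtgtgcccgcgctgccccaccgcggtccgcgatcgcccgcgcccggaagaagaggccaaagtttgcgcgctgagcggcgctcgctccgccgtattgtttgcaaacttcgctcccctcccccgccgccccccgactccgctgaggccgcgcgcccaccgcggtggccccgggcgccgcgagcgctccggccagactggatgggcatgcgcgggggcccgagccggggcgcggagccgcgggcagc
Fzd4: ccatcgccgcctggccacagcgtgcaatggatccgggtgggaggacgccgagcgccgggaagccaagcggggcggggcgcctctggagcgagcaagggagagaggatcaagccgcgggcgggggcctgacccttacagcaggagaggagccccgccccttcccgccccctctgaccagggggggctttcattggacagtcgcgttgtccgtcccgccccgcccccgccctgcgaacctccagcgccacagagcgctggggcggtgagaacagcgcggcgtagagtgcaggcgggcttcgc
The Fzd9 window held ACGTG 3 times, of which 2 are the same palindrome read on each strand (bases 163 to 168 of the window) and 1 stands at bases 198 to 202. The windows of Fzd5, Fzd10 and Fzd4 held none of the 3 motifs, which says only that these letters are not in these windows. All 4 windows were rich in G and C, with 78.0%, 75.7%, 77.7% and 72.7% for Fzd9, Fzd5, Fzd10 and Fzd4, against a median of 52.7% over 32851 promoters of the same length. The median over the 35 windows of the whole group was 67.7%, so richness in G and C was not particular to these 4. ACGTG was held by 6 of 35 windows of the 46 genes and of Kremen2 (some genes have several), and by 19.6% of all promoters. TCAAAG was held by 4 of the 35 and 16.0% of all promoters, and ACCACA by 1 of the 35 and 16.8% of all promoters. Among windows of measured genes, ACGTG was found for Fzd9, Wnt5b and Wnt9a, TCAAAG for Fzd1, Ror1 and Wnt5b, and ACCACA for Ror1.

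Of the 19 Wnt ligands, 5 were measured and none differed by 2-fold. Wnt5a, a ligand that signals through Ror2 in the growing skeleton, had signals of 392 at day 12 and 427 at day 5, a log2 ratio of -0.13. Its other measured probe sets went further the same way, at 113 at day 12 and 148 at day 5 (-0.39) and at 46.6 at day 12 and 67.0 at day 5 (-0.52). Wnt5b, its close relative, went the other way, with signals of 110.4 at day 12 and 85.9 at day 5 (0.36), and its second probe set gave 73.5 at day 12 and 46.1 at day 5, a log2 ratio of at least 0.66. The brightest has a suffix for possible cross-hybridisation (_x) and the other one for several transcripts of 1 gene (_a), and without probe sets of such suffixes Wnt5b was not measured. Wnt7b, a ligand that stimulates bone formation in mice, reached 67.4 at day 12 and lay just under the floor at day 5, at 46.0, which makes it at least 1.44-fold higher. Wnt9a, a ligand of joints and the skull, had 55.9 at day 12 and 87.4 at day 5 (-0.64). Wnt16, which is made by osteoblasts and protects cortical bone in mice, had 75.9 at day 12 and 106 at day 5 (-0.49). Wnt9a, Wnt16, Wnt5b and Wnt7b all lay under the floor at the 75th percentile, where only Wnt5a remained measured.

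The other 14 Wnt genes lay below the floor on both arrays in their brightest probe set, with signals between 0.28 and 44.1. They were Wnt1, Wnt2, Wnt2b, Wnt3, Wnt3a, Wnt4, Wnt6, Wnt7a, Wnt8a, Wnt8b, Wnt9b, Wnt10a, Wnt10b and Wnt11, and no ratio was taken for them. Wnt1 and Wnt10b, both known to promote bone formation, had 7.34 and 5.66 at day 12 and 1.498 and 1.39 at day 5. Wnt4 stood nearest to the floor, with 44.1 at day 12 and 23.8 at day 5. A signal below the floor is a limit of these probe sets and does not show that a gene is silent.

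Wnt proteins need Porcn, the enzyme that attaches their lipid, and Wls, the carrier that brings them to the surface. Porcn had signals of 234 at day 12 and 122 at day 5, 1.92-fold higher and the third largest gap among the measured genes whose signals were above the floor on both arrays. It rests on 1 probe set, whose suffix (_a) marks a match to several transcripts of 1 gene, and its log2 ratio of 0.94 ranged from 0.37 with the floor at the 75th percentile to 1.03 after loess. Wls had signals of 2817 at day 12 and 2858 at day 5, a log2 ratio of -0.02, and its other measured probe sets gave 0.02 and -0.15. Of the genes of Wnt secretion, the acyltransferase gene was thus higher at day 12 and the carrier gene close to equal on both arrays.

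R-spondins are secreted proteins that raise the response to Wnt. Rspo3 had signals of 575 at day 12 and 929.7 at day 5, 1.62-fold lower, and Rspo2 had 354 at day 12 and 554 at day 5, 1.57-fold lower. Their log2 ratios of -0.69 and -0.65 were below 0 under every alternative, and each rests on 1 measured probe set. Rspo1 and Rspo4 lay below the floor on both arrays, between 1.19 and 20.6.

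The R-spondin receptors did not share a direction. Lgr5, known as a stem cell marker and Wnt target in the intestine, had signals of 276 at day 12 and 154 at day 5, 1.79-fold higher. Lgr4, the family member known to act in osteoblasts and osteoclasts, had 1107 at day 12 and 1332 at day 5 (log2 ratio -0.27). Lgr6 lay just below the floor at day 12, at 44.6, and further below it at day 5, at 20.4, and its second probe set gave 42.34 at day 12 and 17.998 at day 5. Its 2 probe sets thus gave higher signals at day 12, both under the floor.

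Rnf43 and Znrf3 are the membrane ubiquitin ligases that R-spondins hold back, and both are induced by Wnt signalling in other tissues. Znrf3 had signals of 204 at day 12 and 159 at day 5 (log2 ratio 0.36). Rnf43 had 56.3 at day 12 and 15.3 at day 5, at least 1.21-fold higher. The bound for Rnf43 depends on where the floor is set, and its log2 ratio was at least 1.52 with the floor at the 50th percentile. With that floor Rnf43 and Lgr6 were counted as at least 2-fold higher besides Fzd5.

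Lrp6, the coreceptor for β-catenin signalling, had signals of 519.9 at day 12 and 515 at day 5 in its brightest probe set (log2 ratio 0.01) and 209.7 at day 12 and 266 at day 5 in the other (-0.35). Lrp5, its relative, whose human mutations alter bone mass, lay below the floor on its 1 probe set, at 32.2 at day 12 and 19.4 at day 5. Kremen1, a receptor that removes Lrp6 from the surface together with Dkk1, had 535 at day 12 and 316 at day 5, 1.69-fold higher, while its second measured probe set gave 62.4 at day 12 and 52.0 at day 5 (log2 ratio 0.26). The receptor tyrosine kinase gene Ror2 had 271 at day 12 and 193 at day 5 (0.49), and Ror1 had 120.4 at day 12 and 106 at day 5 (0.18). Ryk, a receptor of the same branch, had 1171 at day 12 and 1153 at day 5 (0.02), and 991 at day 12 and 854 at day 5 in its second measured probe set (0.22). The ratios of Ror1, Ror2 and Ryk were above 0 under every alternative that measured them, and none was past 1.5-fold.

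**Figure D2:**
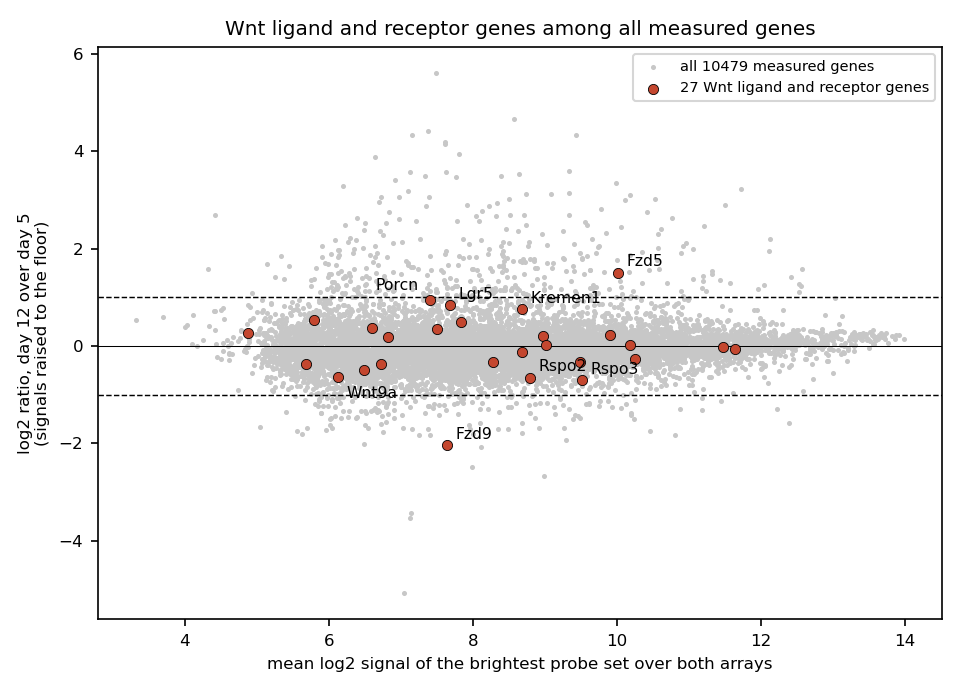
Log2 ratio of day 12 over day 5 against mean log2 signal, for all 10479 measured genes (grey) and the 27 Wnt ligand and receptor genes (red), with names for those past 1.5-fold and dashed lines at 2-fold. Fzd5 at 1.51 and Fzd9 at -2.04 are the red points outside the lines.

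Repeat measurement existed only as several probe sets of 1 gene, which covers probe error and not differences between cultures. The median gap in log2 ratio between the first and second probe set by brightness was 0.17 over 4446 genes with several of them measured, with a 90th percentile of 0.52. Among the 11 members of this kind the median gap was 0.27. In 4 of the 11, Fzd1, Fzd8, Lrp6 and Wls, measured probe sets lay on both sides of 0. For the 16 other measured members, Fzd9, Porcn, Lgr5, Rspo2 and Rspo3 among them, 1 measured probe set carried the ratio.

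**Figure D3:**
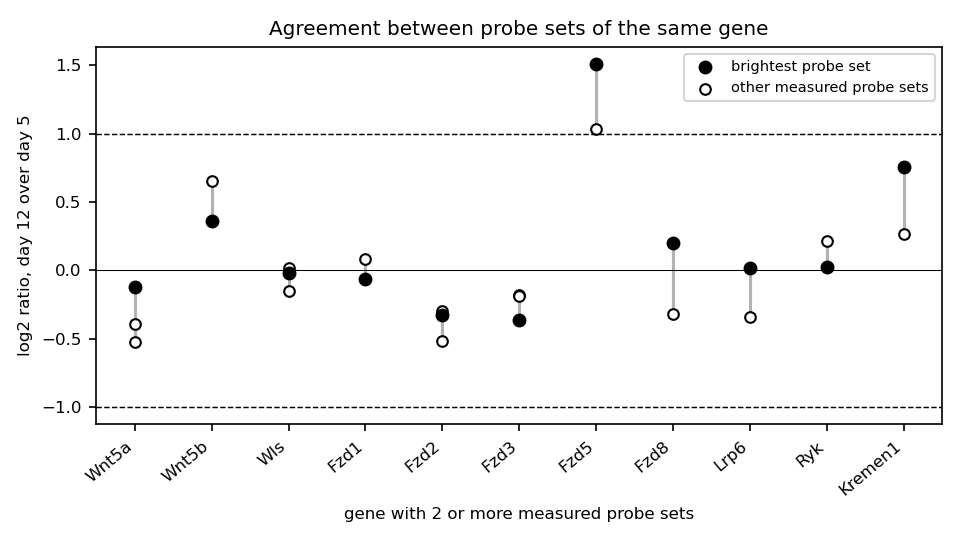
Log2 ratio of day 12 over day 5 in each measured probe set of the 11 members with 2 or more, with the brightest probe set filled, the others open and dashed lines at 2-fold. Only Fzd5 has points past 2-fold, at 1.51 and 1.03.

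The rest of the pathway was read from 5 lists. Secreted antagonists, which bind Wnt proteins or Lrp6 outside the cell, differed in both directions. Of 10 measured, 4 passed 2-fold upward and 2 downward. The 4 were Dkk1 (log2 ratio of at least 3.88), Wif1 (1.98), Frzb (1.54) and Sfrp4 (1.47), and the 2 were Sfrp1 (-1.43) and Sostdc1 (-1.39). The other measured probe set of Dkk1 gave 1.45, with any signal under the floor raised to it. Wif1 and Sfrp4 rest on 1 measured probe set each. The median of the 10 antagonists was 0.22, which was -0.25 with the floor at the 75th percentile and -0.38 without probe sets of suffix _s, _x or _a. Among 14 measured other membrane and extracellular components, 1 passed 2-fold upward and none downward. It was Lrp4, a membrane protein that aids the antagonist sclerostin in bone, with 444 at day 12 and 147 at day 5 (1.59), followed in size by the membrane-anchored Wnt7 cofactor gene Reck (0.51). The median of these 14 was -0.13.

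No gene of the intracellular β-catenin branch or of the planar polarity branch passed 2-fold in its brightest probe set. Other measured probe sets did so for Csnk1d, a casein kinase (1.27, against -0.56 in the brightest), and for Gsk3b, a kinase that marks β-catenin for degradation (-1.03, against 0.04). Of 29 measured genes of the β-catenin branch, Tle4, a corepressor of TCF/LEF factors, was furthest from 0, with 81.1 at day 12 and 151 at day 5 (-0.90), followed by the TCF/LEF factor gene Tcf7l1 (-0.61), and the median was -0.03. Of 12 measured genes of planar polarity, Prickle1 was furthest, with 544 at day 12 and 287 at day 5 (0.93). The formin gene Daam1 had 0.65, and -0.46 in its other measured probe set, and the median was -0.06. Among 12 measured β-catenin target genes, Tnfrsf19 alone was at least 2-fold higher (1.02, under 2-fold after quantile normalisation and with the median of its probe sets), followed by Myc (0.92). None was at least 2-fold lower, and the median was 0.30. The list was split, with 8 ratios above 0, Axin2 at 0.01 among them, and 4 below. The 4 were Lef1 (at least 1.53-fold lower), Nkd1 (-0.46), Nkd2 (-0.31, but 0.50 in another probe set) and Gja1 (-0.06). Each share past 2-fold stands beside the 3.56% and 1.73% of all measured genes given above.

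**Figure D4:**
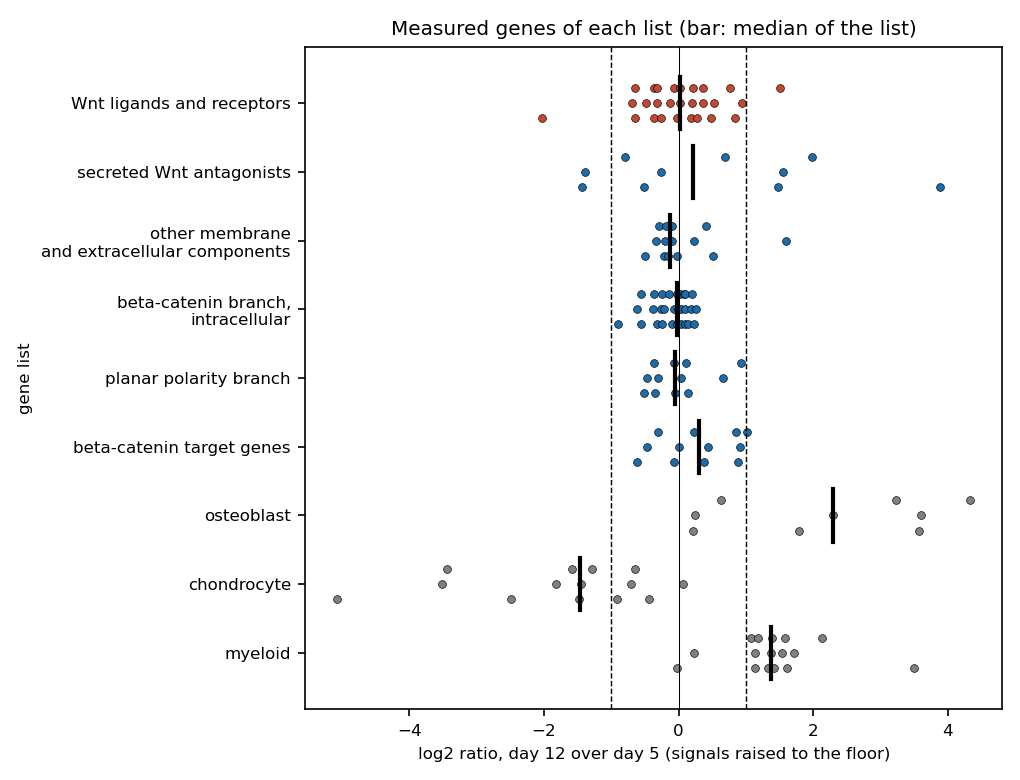
Log2 ratio of day 12 over day 5 of the measured genes of each list (points, spread vertically for legibility), with a bar at the list's median and dashed lines at 2-fold. The Wnt ligand and receptor genes (red) and the β-catenin and planar polarity branches lie around 0, at medians of 0.01, -0.03 and -0.06. Osteoblast, chondrocyte and myeloid markers (grey) have medians of 2.29, -1.47 and 1.38.

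Markers of several cell types differed between the arrays. Osteoblast markers were above the floor on both arrays apart from Phex, which lay below it at day 5, and Runx2, Bglap and Spp1 were not analysed here. Of 9 measured osteoblast markers 6 were at least 2-fold higher and none lower, and their summed signal was 62528 at day 12 and 36247 at day 5. The brightest, Sparc and Col1a2, had log2 ratios of 0.24 and 0.21. Of 14 measured chondrocyte markers 9 were at least 2-fold lower and none higher, with a summed signal of 17619 at day 12 and 39121 at day 5. Col2a1 had 4439 at day 12 and 8405 at day 5, Cnmd had 3091 at day 12 and 9292 at day 5, and Col10a1 lay below the floor. Of 16 measured myeloid markers 14 were at least 2-fold higher and none lower, with a summed signal of 15072 at day 12 and 5865 at day 5. Lyz2 had 5984 at day 12 and 2649 at day 5, Csf1r had 1778 at day 12 and 812 at day 5, and Itgam, which encodes CD11b, lay below the floor at 35.4 at day 12 and 14.6 at day 5. No marker was listed at 0. Fzd9, both measured R-spondins and Wnt9a (-0.64) were lower at day 12. So were most chondrocyte markers, 4 of 5 measured adipocyte markers and the muscle gene Acta1 (-1.69). Fzd5, Porcn, Lgr5 and Kremen1 were higher, as were most myeloid and osteoblast markers. With 1 array a day, all genes of the same direction go together, so a shared direction does not link a gene to a cell type. The part of these cell types in the results was not tested.

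Counts for the remaining marker lists are as follows. No measured osteoclast, endothelial or cycling cell marker passed 2-fold, of 4, 2 and 7 measured. The osteoclast gene Atp6v0d2 had 85.6 at day 12, against a day-5 signal of 15.7 that was under the floor, so it was at least 1.84-fold higher. It was past 2-fold with the floor at the 50th percentile and with the pseudocount. Summed signals were 4495 at day 12 and 3597 at day 5 for osteoclast markers (brightest Ctsk and Acp5), 195 at day 12 and 187 at day 5 for endothelial markers (brightest Egfl7 and Esam) and 6225 at day 12 and 6272 at day 5 for cycling cell markers (brightest Top2a and Cdk1). Of 5 measured adipocyte markers 1, Lpl, was at least 2-fold higher, with 1560.2 at day 12 and 739 at day 5, while the other 4 had ratios below 0 and the median was -0.54. The summed signal, most of it from Lpl, was 1840.0 at day 12 and 1198 at day 5, and Fabp4 was the next brightest (-0.83). Of 7 smooth muscle and pericyte markers 1 was higher and 1 lower, with 22858 at day 12 and 23880.4 at day 5 (brightest Acta2 and Tagln). Of skeletal muscle markers only Acta1 was measured, at 72.8 at day 12 and 235 at day 5 (-1.69), with a sum over the list of 125 at day 12 and 307 at day 5, and Tnnt3 was the next brightest.

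**Figure D5:**
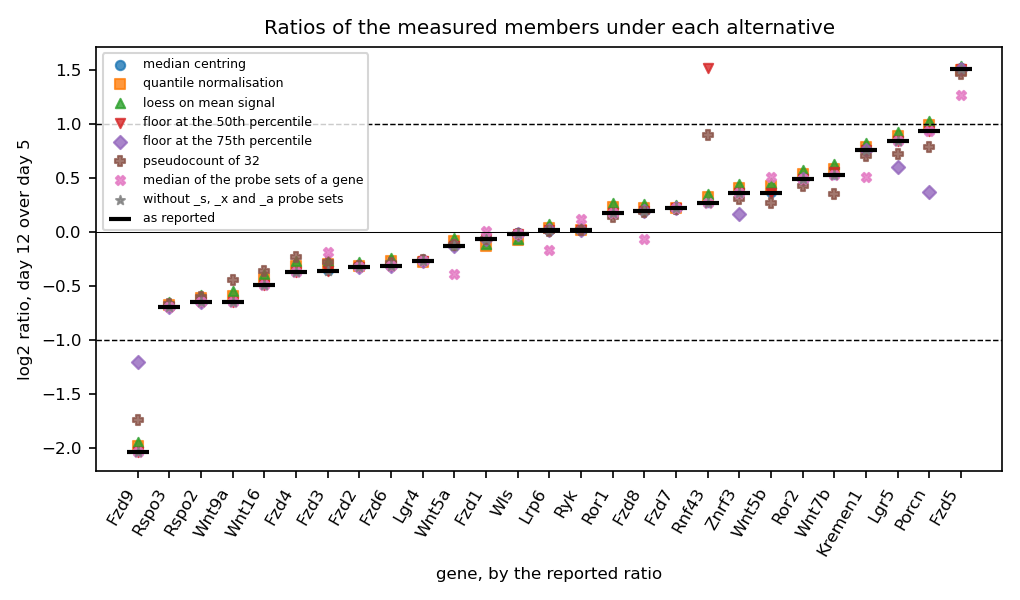
Log2 ratio of day 12 over day 5 of each of the 27 measured members as reported (black bars) and under 8 alternatives of normalisation, floor and choice of probe set (coloured marks), with dashed lines at 2-fold. Fzd5 and Fzd9 stay outside the lines under every alternative. Rnf43 crosses 2-fold with the floor at the 50th percentile, at a bound of 1.52, and Porcn crosses it after loess, at 1.03.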

How the data were processed

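Total RNA (5 µg) of each culture was labelled with biotin and hybridised to 1 array, per the labels' protocols. The authors deposited signal intensity for 45101 probe sets, made with GCOS 1.4 and MAS5 per the submitters' processing notes, which give no settings here. Both arrays had a trimmed mean of 200.0 (2% trimmed from either tail), so they were scaled to 1 target, and a change in total RNA per cell cannot be seen. No detection calls were used.

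Names came from the platform annotation, with symbols updated by Entrez number through a GRCm38.p6 table for 34741 of 34945 probe sets. The 932 with several symbols and 9160 with none were not named. The brightest probe set by mean log2 signal stood for a gene. Some listed genes had no such probe set and were not analysed here. Members, lists and tests were chosen with earlier results of these data known. Every member is accounted for, and of pathway lists the genes past 2-fold and the 2 largest ratios are named, and of marker lists the 2 brightest genes. Phex, Col10a1, Itgam, Atp6v0d2, Csnk1d, Gsk3b, Axin2, Lef1, Nkd1, Nkd2 and Gja1 were named after their values were seen. Near-identical genes can cross-hybridise to short probes, and 1 alternative leaves out probe sets that match several transcripts, of different genes (suffix _s or _x) or of 1 gene (_a). With 1 array a day there is no test, and the number of arrays limits the precision. Code was tested on simulated data. The tools were matplotlib 3.10.9, statsmodels 0.14.6, pandas 2.3.3 and numpy 2.4.6 under Python 3.11.15.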

Additional observations from a re-analysis of the deposited data

How the results depend on the processing

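Results were recomputed with 3 scalings (median centring, quantile normalisation, loess with a span of 0.3), with the floor at the 50th or the 75th percentile or replaced by a pseudocount of 32, with the median over probe sets, without probe sets of suffix _s, _x or _a, and at 1.5-fold and 3-fold. The count of members higher at day 12 was 1 as reported, 2 after loess (Fzd5 and Porcn), 3 with the floor at the 50th percentile (Fzd5, Lgr6 and Rnf43), 4 at 1.5-fold and 0 at 3-fold. The count lower was 1 as reported and 4 at 1.5-fold, and 1, Fzd9, under every other alternative. The number measured ran from 19 with the floor at the 75th percentile to 36 with that at the 50th, and the median log2 ratio from -0.04 without those suffixes to 0.04 after loess. The scalings shifted the median of all measured genes by up to 0.05 (loess). Over all genes, 373 were higher and 181 lower as reported, 510 and 297 with the floor at the 50th percentile, and 223 and 74 with that at the 75th. Of the 27 measured members 24 kept the sign of their ratio under every alternative that measured them, and Fzd1, Fzd8 and Lrp6 changed it with the median of their probe sets. No paired analysis was possible because each day had 1 array, and no array could be left out for the same reason. Genes near the floor are limited by their low signal.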

Other observations

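Some of these genes lie next to each other on the chromosome among protein-coding genes of the GRCm38.p6 table, and 5 such pairs were found. Wnt3a and Wnt9a are neighbours, of which Wnt9a was measured on both arrays and Wnt3a on neither. Both genes of the pairs Wnt6 with Wnt10a, Wnt9b with Wnt3 and Wnt10b with Wnt1 lay below the floor on both arrays. Kremen1 and Znrf3 are neighbours and both were measured, with log2 ratios of 0.76 and 0.36.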
